A study of Rattus norvegicus with 18 samples.

Results

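Base excision repair genes were examined in the colonic mucosa of rats given azoxymethane, a carcinogen of the large bowel whose breakdown products alkylate DNA. The array holds 14217 genes with a probe set of 1 annotated symbol. The set examined here holds 10 of them (Tdg, Ogg1, Neil1, Ung, Apex1, Xrcc1, Parp1, Parp2, Polb and Lig3). They were chosen by name, with earlier results of these data known. All 13 probe sets named for these genes were taken, and 12 of them were bright enough to be tested, with at least 1 for each gene. Mucosa scraped from the distal and from the proximal colon of 9 male Sprague Dawley rats was hybridised to 18 Affymetrix arrays, 9 for each region. Both regions carried the same exposure: the rats ate modified AIN-93G diet over 10 days, received a subcutaneous dose of azoxymethane (15 mg per kg) and were killed 6 h later. The rats' age is not given in the labels used here. The rats had been allocated to 2 groups that the labels used here do not tie to single rats, so distal and proximal colon were compared over all 9. Rat 9 was not analysed here. No rat without azoxymethane was among the samples used here, so nothing below shows what the injection changed.

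Base excision repair removes small damaged bases from DNA. A glycosylase cuts out the base, an endonuclease opens the strand at the empty site, a polymerase fills the gap and a ligase seals it, while the poly(ADP-ribose) polymerases sense the break and call in the scaffold protein that holds the later enzymes. Alkylated purines, which azoxymethane produces, are among the lesions this pathway handles in the colon.

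Signals are log2 values of the deposited intensities after quantile normalization, and a difference of 1 on this scale is a 2-fold change. A gene passed when its adjusted p in the limma fit over all 21729 probe sets tested was below 0.05. Where a gene had more than 1 probe set, the one with the highest mean signal stands for the gene, and the others of the 10 genes are given beside it. The scraped samples carried strong signals of epithelial genes. Krt8 averaged 13.70 ± 0.04 in distal and 13.67 ± 0.07 in proximal colon, and Krt19 averaged 13.65 ± 0.04 in distal and 13.62 ± 0.11 in proximal colon (SD, n = 9 each). Of 9 epithelial markers tested, Krt20 (-0.49, limma adjusted p = 0.000921) and Vil1 (-0.43, adjusted p = 0.000438) passed as higher in proximal colon, and the mean of the 9 was lower in distal colon in 8 of 9 rats. The deposited scale differed between arrays by a factor of up to 1.62. The smooth muscle marker mean (10 of 10 markers tested) ran from 6.77 to 9.88 in distal and from 7.00 to 12.09 in proximal colon, highest in the proximal array of rat 3, followed by the distal arrays of rats 3 and 7. The fibroblast marker mean was lower in distal colon in 7 of 9 rats (-0.78), and 0 of 6 fibroblast and 0 of 10 smooth muscle markers passed in the limma fit (0 of either list also at an unadjusted p below 0.05). Of 8 lymphocyte and plasma cell markers Jchain passed, as higher in proximal colon (-1.47, adjusted p = 0.00944). Fewer cells of a type and less RNA per cell cannot be told apart in scraped tissue.

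Of the 10 genes, 4 were higher in distal colon, namely Tdg, Neil1, Xrcc1 and Lig3, and 2 were higher in proximal colon, namely Ogg1 and Parp2. Ung, Apex1, Parp1 and Polb did not pass. Over all 11407 genes tested, 30.8% passed, 16.2% as higher in distal and 14.5% as higher in proximal colon, and of all probe sets tested 26.5% did, against 8 of the 12 member probe sets. Regional differences were thus common in these samples. The median difference of the 10 genes was 0.18, against 0.01 over all genes tested. Every difference was small, from -0.26 to 0.40, and in each of the 10 genes the signals of the regions overlapped, while 6.89% of all genes had regions that did not overlap.

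The promoters of the 6 genes that passed are shown because these are the members whose signal differed between the regions. Each runs from 250 bases before to 50 bases after the annotated start in rat assembly GRCr8 (RefSeq), is read along the gene's strand, and shows 3 motifs in capitals, searched on both strands. They are the box CCAAT, the Sp1-type letters GGGCGG, and the NRF1 motif, which is GCGCA followed by any base and then by GCGC.
Tdg, chr7:22985051-22985350, - strand: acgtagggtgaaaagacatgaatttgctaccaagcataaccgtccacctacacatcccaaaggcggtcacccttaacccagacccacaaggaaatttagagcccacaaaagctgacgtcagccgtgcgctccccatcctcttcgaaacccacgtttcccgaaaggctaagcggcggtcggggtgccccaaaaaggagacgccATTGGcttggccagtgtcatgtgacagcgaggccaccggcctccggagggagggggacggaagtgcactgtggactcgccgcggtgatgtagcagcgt
Neil1, chr8:66451901-66452200, - strand: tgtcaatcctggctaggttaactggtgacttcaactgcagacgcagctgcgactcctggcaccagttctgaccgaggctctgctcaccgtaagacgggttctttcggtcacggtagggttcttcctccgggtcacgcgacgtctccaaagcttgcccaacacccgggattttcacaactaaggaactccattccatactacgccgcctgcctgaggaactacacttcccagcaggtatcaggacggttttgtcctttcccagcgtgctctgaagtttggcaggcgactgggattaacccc
Ogg1, chr4:148030336-148030635, + strand: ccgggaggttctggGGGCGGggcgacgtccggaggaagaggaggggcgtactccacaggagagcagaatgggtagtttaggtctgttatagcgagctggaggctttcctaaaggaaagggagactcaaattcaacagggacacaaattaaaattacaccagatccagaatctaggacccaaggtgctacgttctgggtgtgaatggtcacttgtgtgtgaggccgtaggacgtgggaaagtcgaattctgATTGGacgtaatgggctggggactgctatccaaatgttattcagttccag
Parp2, chr15:26507409-26507708, + strand: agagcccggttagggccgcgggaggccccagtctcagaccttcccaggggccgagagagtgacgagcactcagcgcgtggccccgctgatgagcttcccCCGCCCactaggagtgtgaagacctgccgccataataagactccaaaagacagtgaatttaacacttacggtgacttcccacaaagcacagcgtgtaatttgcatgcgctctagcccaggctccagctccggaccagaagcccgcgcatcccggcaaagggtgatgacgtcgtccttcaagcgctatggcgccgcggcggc
Xrcc1, chr1:89268939-89269238, + strand: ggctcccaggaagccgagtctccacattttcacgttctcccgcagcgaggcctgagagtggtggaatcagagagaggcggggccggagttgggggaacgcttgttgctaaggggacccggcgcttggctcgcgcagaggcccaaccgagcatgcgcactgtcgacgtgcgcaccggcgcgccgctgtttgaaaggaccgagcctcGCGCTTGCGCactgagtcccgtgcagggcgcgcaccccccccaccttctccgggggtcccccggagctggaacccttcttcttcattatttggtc
Lig3, chr10:68215121-68215420, + strand: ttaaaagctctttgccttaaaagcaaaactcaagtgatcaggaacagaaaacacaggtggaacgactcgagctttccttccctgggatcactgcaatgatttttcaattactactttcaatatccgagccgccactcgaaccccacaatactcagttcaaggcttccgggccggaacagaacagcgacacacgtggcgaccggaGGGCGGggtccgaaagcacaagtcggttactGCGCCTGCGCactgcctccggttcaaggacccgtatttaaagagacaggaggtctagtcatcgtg

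A promoter was matched for 9 of the 10 genes, all but Polb. The 9 windows held 12 to 37 CpG dinucleotides (median 24), against a median of 7 and an upper quartile of 19 over 33469 promoter windows of the same length. Their GC content was 51.33% to 70.33%, against a median of 51.67% over all windows. GGGCGG, the letters bound by Sp1-type factors, was found in 6 of 9 windows and in 33.1% of all windows. CCAAT, the box bound by NF-Y, was found in 4 of 9 and in 37.5% of all. The NRF1 motif was found only in the windows of Xrcc1 and Lig3 among these 9, and in 4.25% of all. CACGTG, the canonical E-box, was found in Ung, Apex1 and Lig3 and in 6.42% of all. TATAAA was found in 0 of 9 and in 14.2% of all. Of the promoters printed above, GGGCGG was present in Lig3, Ogg1 and Parp2, CCAAT was present in Tdg and Ogg1, the NRF1 motif in Xrcc1 and Lig3, and none of the 3 in Neil1. AP-1 letters (TGANTCA) were found in 0 of 9 windows and in 7.33% of all, and E2F letters (TTTCGCGC or TTTGGCGC) in 0 of 9 and in 0.792% of all. Parp2 and Apex1 lie close together on chromosome 15, with 6 annotated genes between them.

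Among the glycosylases, Tdg and Neil1 were higher in distal and Ogg1 in proximal colon. Tdg encodes thymine DNA glycosylase, which removes thymine and uracil mispaired with guanine and also the oxidised forms of 5-methylcytosine. Its signal had a lowest value of 8.95, a median of 9.23 and a highest value of 9.58 in distal colon, against 8.72, 8.80 and 9.05 in proximal colon. All but 1 of the distal arrays, that of rat 10, lay above the highest proximal array. Tdg averaged 9.27 ± 0.20 in distal and 8.86 ± 0.12 in proximal colon (SD, n = 9 each), which is 1.32-fold higher in distal colon (log2 difference 0.40 ± 0.08 SE, limma adjusted p = 0.00101, 9 of 9 rats). The difference within a rat ran from 0.08 in rat 6 to 0.71 in rat 8.

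Neil1 encodes a glycosylase for oxidised pyrimidines. Its signal ran from 7.66 to 8.03 with a median of 7.74 in distal colon, against 7.28 to 7.82 with a median of 7.52 in proximal colon. Only the proximal array of rat 4 (7.82) reached into the range of the distal arrays. Neil1 was 1.24-fold higher in distal colon (0.31 ± 0.08 SE, limma adjusted p = 0.00838), in 8 of 9 rats, with rat 4 the exception.

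Ogg1 encodes the glycosylase that removes 8-oxoguanine, the common product of guanine oxidation. Its signal ran from 6.8 to 7.36 with a median of 7.09 in distal colon, against 7.10 to 7.58 with a median of 7.35 in proximal colon. The regions overlapped widely, and distal rats 4 and 10 were as bright as the middle of the proximal arrays. Ogg1 was 1.20-fold higher in proximal colon (log2 difference -0.26 ± 0.09 SE, limma adjusted p = 0.0415, in 7 of 9 rats). Rats 1, 6 and 7 had differences of -0.58, -0.53 and -0.49, while rats 2 and 4 were slightly positive at 0.046 and 0.013. Ogg1 no longer passed when rat 1, 5, 6, 7, 8 or 10 was left out (adjusted p from 0.0549 to 0.122).

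Ung encodes uracil DNA glycosylase, which removes uracil from DNA. Its signal ran from 8.62 to 9.29 with a median of 8.77 in distal colon, against 8.57 to 9.10 with a median of 8.82 in proximal colon. The ranges were nearly the same, and rat 3 was highest in both regions. The difference was -0.0042 ± 0.09 SE (limma adjusted p = 0.979), with a 95% interval from -0.19 to 0.18, which does not show that the regions were alike.

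**Figure D1:**
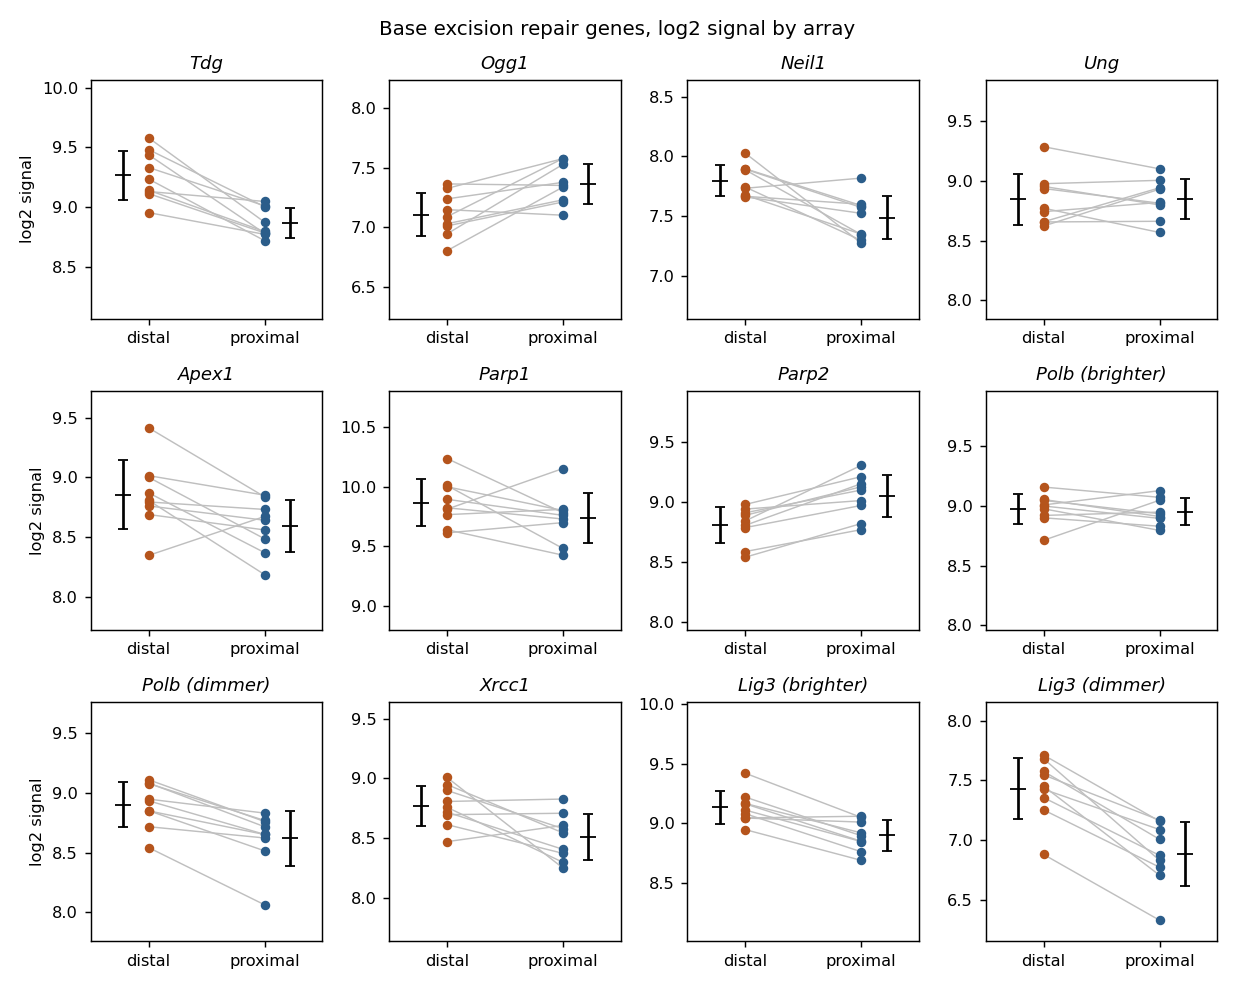
Log2 signal (quantile-normalized, vertical axis) of 12 tested probe sets in distal (left, orange) and proximal (right, blue) colon. Each point is an array, grey lines join the arrays of a rat, black marks are the mean and SD (n = 9 each), and each panel spans 2 log2 units at its own level. Tdg is higher in distal colon in 9 of 9 rats and Parp2 is lower there in 9 of 9 rats, with overlapping ranges.

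Apex1 encodes the main endonuclease for sites that have lost their base. Its brighter probe set ran from 8.35 to 9.42 with a median of 8.81 in distal colon, against 8.19 to 8.85 with a median of 8.64 in proximal colon. Distal rat 8 (9.42) was the brightest array and distal rat 3 (8.35) lay below all but 1 of the proximal arrays. The difference was 0.26 ± 0.12 SE (95% interval 0.02 to 0.50, 8 of 9 rats), with a limma adjusted p of 0.102, so Apex1 did not pass. Without rat 3, whose difference was -0.33 against 0.06 to 0.62 in the others, it was 0.34 (adjusted p = 0.0292). The other Apex1 probe set had mean signals of 4.99 in distal and 5.30 in proximal colon, below the level of 5.54 needed for testing.

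Of the 2 poly(ADP-ribose) polymerases, which sense strand breaks and mark proteins around them, Parp2 passed and Parp1 did not, and the difference between them was not tested. Parp2 ran from 8.54 to 8.98 with a median of 8.84 in distal colon, against 8.77 to 9.31 with a median of 9.10 in proximal colon. After quantile normalization the distal array was the lower one within each rat, although the ranges overlapped. Rats 3 and 10 were the lowest in both regions. Parp2 was 1.18-fold higher in proximal colon (-0.24 ± 0.08 SE, limma adjusted p = 0.0299, 9 of 9 rats). In the fit with rat as a block the adjusted p was 0.00416. It exceeded 0.05 when rat 1, 2, 5, 7 or 8 was left out of the fit without the block (0.0508 to 0.0745).

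Parp1, the better known enzyme of the pair, ran from 9.61 to 10.24 with a median of 9.82 in distal colon, against 9.43 to 10.15 with a median of 9.76 in proximal colon. The difference was 0.13 ± 0.09 SE (95% interval -0.06 to 0.32, 6 of 9 rats, limma adjusted p = 0.335). Rats 5 and 8 were higher in distal colon by 0.53 and 0.45, and rat 3 was lower there by 0.34, so the rats did not move together.

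Polb encodes DNA polymerase beta, which fills the single-base gap. Its probe sets gave different answers. The brighter one ran from 8.71 to 9.16 with a median of 9.0 in distal colon, against 8.79 to 9.13 with a median of 8.93 in proximal colon. Its difference was 0.02 ± 0.06 SE (95% interval -0.11 to 0.16, limma adjusted p = 0.823). The dimmer one ran from 8.54 to 9.11 with a median of 8.93 in distal colon, against 8.06 to 8.83 with a median of 8.65 in proximal colon. It was 1.22-fold higher in distal colon (0.28 ± 0.10 SE, limma adjusted p = 0.0381), in 9 of 9 rats. Its lowest array was proximal rat 3, and without the proximal arrays of rats 3 and 6 the difference was 0.21 (adjusted p = 0.0736). The adjusted p was 0.00243 in the fit with rat as a block. The dimmer probe set had a difference of 0.48 in rat 3, where the brighter one had 0.18. For Polb the call thus depends on the probe set.

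Xrcc1 encodes the scaffold that binds the polymerase and the ligase at the break. Its signal ran from 8.47 to 9.01 with a median of 8.76 in distal colon, against 8.25 to 8.83 with a median of 8.54 in proximal colon. It was 1.20-fold higher in distal colon (0.26 ± 0.09 SE, limma adjusted p = 0.0335), but in only 6 of 9 rats. Rats 1, 3 and 5 had differences of -0.01, -0.02 and -0.14, and rat 8 had the largest, 0.76. Xrcc1 did not pass when rat 2, 4, 6, 7, 8 or 10 was left out (adjusted p from 0.0522 to 0.118).

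Lig3 encodes the ligase that Xrcc1 carries and that also serves mitochondrial DNA. The brighter Lig3 probe set ran from 8.95 to 9.42 with a median of 9.11 in distal colon, against 8.69 to 9.06 with a median of 8.90 in proximal colon. It was 1.18-fold higher in distal colon (0.23 ± 0.07 SE, limma adjusted p = 0.0140, 8 of 9 rats). The dimmer Lig3 probe set ran from 6.88 to 7.71 with a median of 7.45 in distal colon, against 6.33 to 7.17 with a median of 6.87 in proximal colon. It was 1.46-fold higher in distal colon (0.55 ± 0.12 SE, limma adjusted p = 0.00232, 9 of 9 rats). Both probe sets gave the same direction, and distal rat 3 was the only distal array of the dimmer one that lay inside the proximal range. Tdg, Neil1 and Lig3 each passed as higher in distal colon after any 1 rat was left out.

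**Figure D2:**
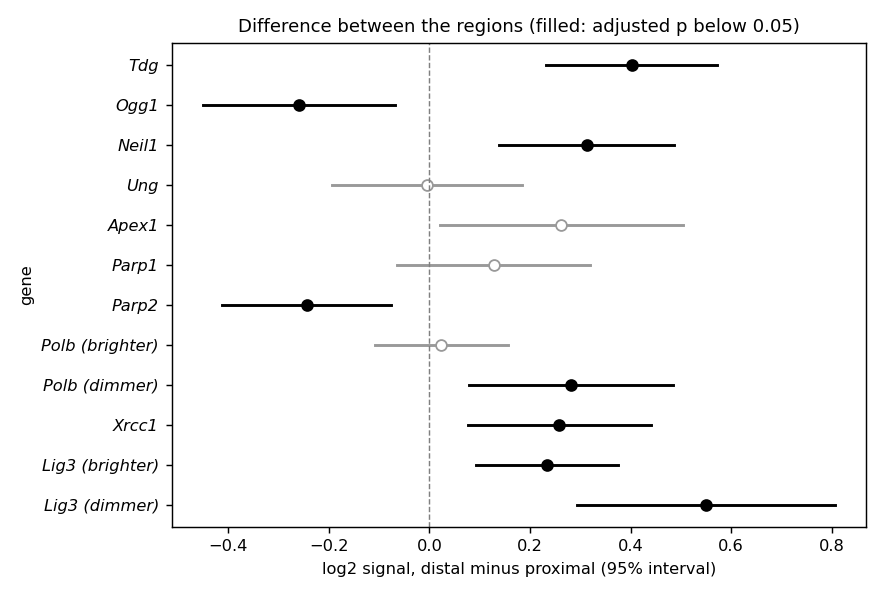
Difference in log2 signal, distal minus proximal (horizontal axis), with its 95% interval for 12 probe sets of the 10 genes, in pathway order. Filled points passed at an adjusted p below 0.05; the brighter Polb probe set lies at 0.02 and the dimmer one at 0.28.

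The rats differed in how far the genes moved. Of the 10 genes, 8 were higher in distal colon in rats 8 and 10, and 4 in rat 1. The mean difference over the 10 genes was 0.35 in rat 8, against -0.05 to 0.15 in the other rats. Distal rat 8 was the brightest distal array for 8 of the 13 probe sets, and proximal rat 3 the dimmest proximal array for 5 of 13. The 13 include the Apex1 probe set too dim to be tested. Such counts were not made over all probe sets, so they may not be particular to these genes. The smooth muscle marker mean of distal rat 8 was 7.52, near the distal median of 7.6, whereas that of proximal rat 3 was 12.09. Without rat 8, 3 of the 10 genes and 27.1% of all genes passed, and without rat 7 also 3, with 27.5% of all genes, so the members' share was then near that of all genes. With the smooth muscle marker mean as a covariate the same 6 genes passed, as did 33.8% of all genes. Without the 3 arrays of highest smooth muscle marker mean 6 genes passed as well, and 30.6% of all genes, but Apex1 passed there (0.32, limma adjusted p = 0.0496) and Ogg1 did not (-0.26, adjusted p = 0.0700).

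**Figure D3:**
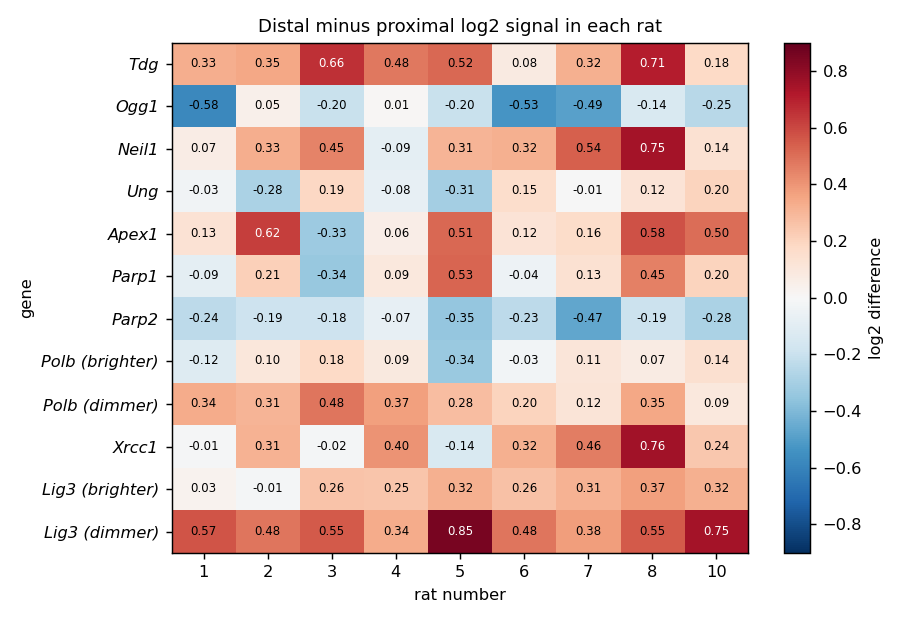
Distal minus proximal log2 signal in each of the 9 rats (columns) for 12 probe sets (rows), with red for higher in distal and blue for higher in proximal colon. Parp2 is below 0 in all 9 rats, Tdg and the dimmer Polb and Lig3 probe sets are above 0 in all 9, and rat 8 holds the largest values of Tdg, Neil1 and Xrcc1.

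Because the arrays were deposited on unequal scales, members were also set against each other within an array, where a common scale factor cancels apart from the pseudocount. Such a difference shows unequal change between the regions and not which of the pair changed. These pairs were chosen with the differences above known, so they are given without a test. Tdg minus Ogg1 was 2.16 ± 0.24 in distal and 1.5 ± 0.18 in proximal colon (SD, n = 9 each), and was larger in distal colon in 9 of 9 rats by 0.66 ± 0.22 (SD over rats). With the deposited scaling it was larger by 0.70 ± 0.24, again in 9 of 9 rats. Neil1 minus Ogg1 was 0.69 ± 0.24 in distal and 0.12 ± 0.23 in proximal colon, larger in distal colon in 8 of 9 rats by 0.57 ± 0.35, and by 0.59 ± 0.35 with the deposited scaling.

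Parp2 minus Parp1 was -1.06 ± 0.26 in distal and -0.68 ± 0.32 in proximal colon, lower in distal colon in 8 of 9 rats (-0.37 ± 0.32, SD over rats). Polb minus Apex1 was 0.12 ± 0.34 in distal and 0.36 ± 0.25 in proximal colon, lower in distal colon in 7 of 9 rats. Lig3 minus Xrcc1, the pair that works as a complex, was 0.36 ± 0.18 in distal and 0.39 ± 0.27 in proximal colon, and it was higher in distal colon in 4 of 9 rats (-0.02 ± 0.27).

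**Figure D4:**
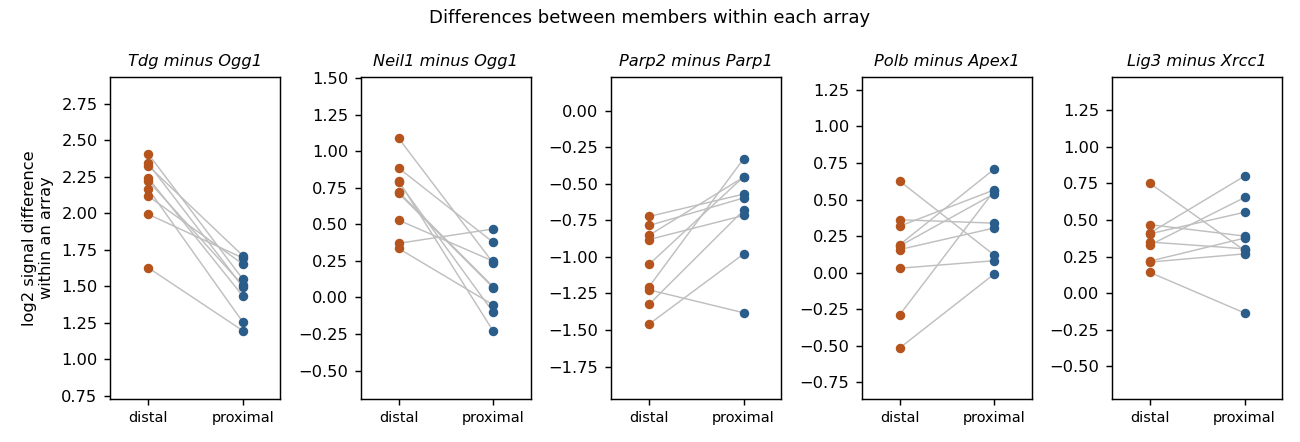
Log2 signal of a gene minus that of another gene in the same array (vertical axis) for 5 pairs, in distal (left, orange) and proximal (right, blue) colon, with grey lines joining the arrays of a rat (n = 9 each). Tdg minus Ogg1 is larger in distal colon in 9 of 9 rats, and Lig3 minus Xrcc1 shows no common direction.

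Spread among rats was modest. The median SD of the 10 genes was 0.18 in distal and 0.17 in proximal colon, against 0.21 and 0.22 over all genes tested. After each region's mean was removed, the signals of the 10 genes followed each other only loosely over the 18 arrays, which share their RNA, region and scaling. The highest Pearson's r among the 45 pairs was 0.63, between Apex1 and Parp1, followed by 0.55 between Ung and Xrcc1, and the lowest was -0.45, between Ogg1 and Ung. Tdg and Neil1, which were both higher in distal colon, had an r of 0.36.

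The genes with the most similar pattern were sought among 11278 named genes by Pearson's r over the 18 arrays, as a description in which the difference between the regions itself contributes. For Tdg they were Polr3e (r = 0.92) and Adprs (r = 0.89), and for Apex1 they were Ran (r = 0.96) and Gas5 (r = 0.91). For Parp2 they were Fas (r = 0.91) and Rtcb (r = 0.89), and for Neil1 B3gat1 (r = 0.87) and Ppwd1 (r = 0.87). For Ogg1 they were Smim27 (r = 0.87) and Kcnj15 (r = 0.81), for Xrcc1 Sox4 (r = 0.87) and Anapc5 (r = 0.87), and for Lig3 Smpd3 (r = 0.90) and Tp53rkb (r = 0.90). Parp1 was closest to Eif5a (r = 0.88) and Utp6 (r = 0.87), Ung to Adissp (r = 0.80) and Slc12a2 (r = 0.78), and Polb to Comtd1 (r = 0.75) and Rcc1 (r = 0.75). With the region means removed, r was 0.95 for Apex1 with Ran, 0.88 for Ogg1 with Smim27, 0.85 for Parp2 with Fas and 0.74 for Tdg with Adprs.

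Among 33 other genes of the pathway or linked to it, tested in 5 lists by role, 9 passed, near the 30.8% of all genes. Distal colon had the higher signal for 3 of the 9 and proximal colon for 6, and the median difference of the 33 was -0.04. Of the other DNA glycosylases, 0 of 3 tested passed in the limma fit, and 0 of 3 had an unadjusted p below 0.05 (lowest 0.105, for Mutyh, which removes adenine mispaired with 8-oxoguanine). Mpg, the brightest of the 3, had a difference of 0.06 ± 0.10 SE (limma adjusted p = 0.707). Of 5 genes that clean up broken ends, only Tdp2, a phosphodiesterase that frees DNA ends from trapped topoisomerase, passed. Tdp2 averaged 10.16 ± 0.19 in distal and 10.53 ± 0.13 in proximal colon (limma adjusted p = 0.00109, higher in proximal colon in 8 of 9 rats).

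Of 16 genes of long-patch synthesis and ligation, 3 were higher in proximal colon and Rfc1, the large subunit of the clamp loader, was higher in distal colon, with a median of -0.10. Pole2 averaged 6.72 ± 0.40 in distal and 7.26 ± 0.11 in proximal colon, and Pole averaged 7.06 ± 0.22 in distal and 7.55 ± 0.22 in proximal colon (limma adjusted p = 0.00617 and 0.00179, higher in proximal colon in 9 and 8 of 9 rats). Both are subunits of DNA polymerase epsilon, the replicative enzyme. Pold4, a small subunit of polymerase delta, passed with a difference of -0.19 (adjusted p = 0.0457), but not in 7 of the 9 fits that left out a rat (0.0579 to 0.121 in those). Rfc1 had a difference of 0.42 in its brightest probe set (adjusted p = 0.00127, 9 of 9 rats). Another of its probe sets had 0.91 (adjusted p = 0.0143, 7 of 9 rats). That probe set was dim, with mean signals of 6.14 in distal and 5.22 in proximal colon. It was tested on its mean over all arrays, and its proximal mean lay below the level of 5.54. The remaining Rfc1 probe set had -0.08 and did not pass (adjusted p = 0.672). The dimmer probe set of Pold3, a polymerase delta subunit, passed as higher in proximal colon (-0.29, adjusted p = 0.0418), while its brighter one did not pass (0.12, adjusted p = 0.261).

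Of 4 genes of poly(ADP-ribose) turnover, Parg and Adprs, both of which remove ADP-ribose from proteins, passed in opposite directions. Parg, the glycohydrolase that degrades the chains, ran from 9.10 to 9.42 in distal and from 9.44 to 9.82 in proximal colon, so that the regions did not overlap (1.26-fold higher in proximal colon, limma adjusted p = 0.000438, 9 of 9 rats). Adprs, which removes the last unit from serine, ran from 8.95 to 9.63 in distal and from 8.57 to 9.14 in proximal colon (1.32-fold higher in distal colon, adjusted p = 0.00158, 9 of 9 rats). Parg was thus lower in distal colon, as Parp2 was.

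Of 5 genes linked to active DNA demethylation, in which Tdg removes the oxidised bases made by the Tet enzymes, Gadd45b was 1.56-fold higher in distal colon (limma adjusted p = 0.00285, 9 of 9 rats). Tet1 was 1.31-fold higher in proximal colon (adjusted p = 0.0358, 8 of 9 rats), at mean signals of 5.69 in distal and 6.08 in proximal colon, close to the level for testing. Tet1 did not pass when rat 3, 5, 6, 7, 8 or 10 was left out (adjusted p from 0.0552 to 0.105). Tet2 differed by 0.05 and Tet3 by -0.02, 0.08 and 0.33 in its 3 probe sets, and none of these passed.

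Markers of cycling cells moved with the regions as well. Among 18 tested, 9 passed, each with the higher signal in proximal colon, while 14.5% of all genes passed as higher there. The mean signal of the 18 ran from 7.46 to 8.09 in distal and from 7.91 to 8.41 in proximal colon. It was lower in distal colon in 9 of 9 rats. This is the opposite direction to Tdg, Neil1, Xrcc1 and Lig3 and the same direction as Ogg1, Parp2, Pole and Pole2. Ccna2 (-0.91), Mki67 (-0.75), Plk1 (-0.73) and Top2a (-0.69) had the largest differences. With the cycling marker mean as a covariate Tdg passed (0.41, adjusted p = 0.0479) and the other 9 genes did not, and of all genes 10.6% passed. Neil1 had a difference of 0.31 ± 0.13 SE there, Ogg1 -0.33 ± 0.14 and Xrcc1 0.39 ± 0.13, about as large as or larger than without the covariate, with larger standard errors. Parp2 had -0.11 ± 0.12 and Lig3 0.17 ± 0.10, smaller than without it. Because that mean differed between the regions in 9 of 9 rats, the 2 cannot be told apart here.

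Which genes passed changed with the scaling of the arrays. Quantile normalization gave 6 genes, and centring on the medians gave 4, with 26.3% of all genes. With the deposited scaling only Ogg1 passed (-0.38, adjusted p = 0.0247), among 17.6% of all genes. After quantile normalization and with rat as a block, 36.8% of all genes passed. The median difference of all genes was -0.095 with the deposited scaling and 0.014 after quantile normalization. Of the genes that passed, 22.5% had the higher signal in distal colon with the deposited scaling, 59.1% after median centring and 52.8% after quantile normalization. Tdg had a difference of 0.31 under the deposited scaling (adjusted p = 0.135), Neil1 0.21 (0.295), Xrcc1 0.18 (0.360), Lig3 0.15 (0.492) and Parp2 -0.32 (0.101). The signs of these 6 genes were the same under all 3 scalings, and those of Ung and Polb were not. The counts of rats given for single genes are those after quantile normalization. In the deposited intensities Parp2 was slightly higher in distal colon in rats 1 (485.5 against 480.0) and 5 (511.1 against 492.2). Tdg was lower in distal colon there in rats 6 and 10, and the dimmer Polb probe set in rats 3, 6 and 10.

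**Figure D5:**
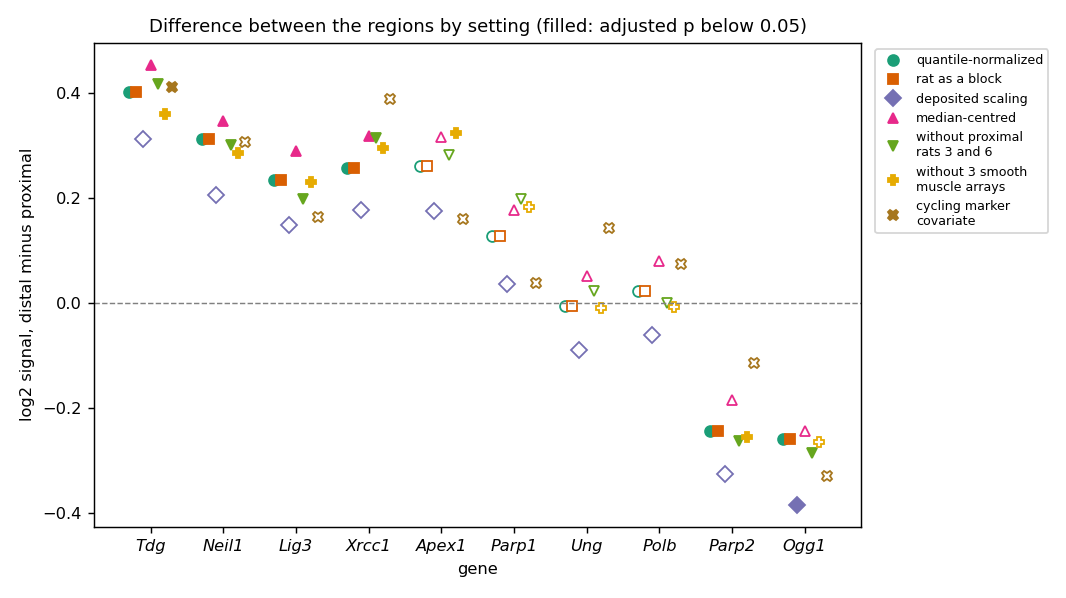
Difference in log2 signal, distal minus proximal (vertical axis), of the 10 genes under 7 settings of normalization, pairing and tissue makeup, with filled symbols at an adjusted p below 0.05. Tdg, Neil1, Lig3 and Xrcc1 stay above 0 and Parp2 and Ogg1 below 0 in all 7, while Ogg1 is the only gene that passed with the deposited scaling.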

How the data were processed

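Colonic mucosa of 9 rats was profiled on 18 arrays, 9 distal and 9 proximal. The deposited values are linear probe set signal intensities which the submitters' processing notes credit to MAS5. No source used here gives its version or scaling target. Trimmed means (2% off each end) ran from 210.3 to 341.2, so the arrays were not on 1 scale. From these intensities log2(value + 16) was computed for 31042 probe sets that are not controls and quantile-normalized. The pseudocount understates folds of dim genes. Probe sets in the lowest 30% by mean signal (below 5.54) were not tested, which left 21729. Names came from the array annotation, which can be old (20826 probe sets with 1 symbol, 436 with several, 9780 unnamed here), and 0 symbols changed through gene IDs of assembly GRCr8.

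Distal minus proximal was fitted with limma 3.58.1 (R 4.3.3) on all 18 arrays, with an intensity trend, no block and two-sided p-values, adjusted by Benjamini and Hochberg's method over the 21729. Adjusted p-values and standard errors are limma's. This fit, and those that left out a rat, did not use the pairing by rat. With rat as a block the limma adjusted p was lower for Parp2 (0.00416 against 0.0299) and Apex1 (0.0536 against 0.102). It was higher for Xrcc1 (0.0412 against 0.0335) and Neil1 (0.0173 against 0.00838). The number of arrays limits the precision. On simulated arrays of this comparison (21729 probe sets), 96 probe sets changed by 0.5 and 94 by 1 on the log2 scale. The fit recovered 57.3% of the former and 89.4% of the latter. Far fewer probe sets changed there than passed in the real fit, so its recovery can differ. Figures were drawn in Python 3.11.15 with matplotlib 3.10.9.

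The genes and lists were chosen with earlier results of these data known. Named are all 10 genes, of each other list up to 4 genes that passed (those of largest difference) and up to 2 of highest signal, and for each member the 2 genes of highest Pearson's r. Mutyh, Pold3, Tet2 and Tet3 were added after their values were seen. Per the labels, arrays with 1 rat number are from 1 animal. Deviations from the region means correlated within a rat with r from 0.000945 to 0.569 (above 0.1 in 6 of 9 rats), and no array copied another (at most 0.00644% identical values in 153 pairs). Alternatives covered the block, scaling, pseudocount, filter, variance model, tissue makeup, probe sets and leaving out each rat.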

Additional observations from a re-analysis of the deposited data

Results flagged for a closer look

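Among 26 groups of 9 arrays (13 probe sets in 2 regions), 1 held an array far from the others, and chance alone gives about 1 in 20. The dimmer Polb probe set had a log2 signal of 8.06 in the proximal array of rat 3, and the next lowest proximal array had 8.52. The gap was 0.588 of the range of the 9 arrays, above Dixon's critical ratio for 9 values. The same array had the highest smooth muscle marker mean, 12.09. Without rat 3 the difference of this probe set was 0.26 (limma adjusted p = 0.00811), against 0.28 (0.0381) with it.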

How the results depend on the processing

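The 6 members that passed kept their direction under all 25 alternatives run, but often not their side of the threshold. With rat as a replicate block 6 members, 8 member probe sets and 4199 genes in all passed, and no call of a member changed. Of the other genes of the pathway or linked to it, 9 passed there. The deposited scaling left 1 member and 1 probe set (0 higher in distal, 1 in proximal colon) and 2003 genes in all. With the replicate block added to it, a setting chosen after seeing the data, 2 members, 3 member probe sets and 2350 genes in all passed. Of the members, 0 passed there as higher in distal colon. Median centring left 5 probe sets and 0 genes higher in proximal colon. The cycling marker covariate left 1 member and 1 probe set (1 higher in distal, 0 in proximal colon), 3 other genes and 1214 genes in all. No filter, and leaving out the 3 arrays of highest smooth muscle marker mean, each left 1 gene higher in proximal colon. Leaving out each rat in turn gave 3 to 7 members, 4 to 9 member probe sets and 0 to 2 members higher in proximal colon. In these fits 3015 to 3661 genes in all passed. Ung changed sign to 0.051 with median centring, to 0.024 when proximal rats 3 and 6 were left out, to 0.010 and 0.14 with the smooth muscle and cycling covariates, and ran from -0.030 to 0.034 when each rat was left out. Polb changed sign to -0.059 with the deposited scaling (with and without the block) and to -0.0063 without the 3 smooth muscle arrays. The cause of these changes was not tested. Neither Ung nor the brighter Polb probe set passed under any alternative run, and Apex1 passed under 3 of 25. The simulated recovery of 57.3% at 0.5 came from arrays in which far fewer probe sets changed than passed here. It therefore does not measure how often differences as small as those of these genes are missed.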
